A study of Mus musculus with 18 samples.

Results

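CA2 and CA3 are neighbouring fields of hippocampal pyramidal cells, and 10 genes used as their markers were followed here through a study of stress and exercise. The 6 CA2 markers were Rgs14, Pcp4, Amigo2, Necab2, Cacng5 and Map3k15, and the 4 CA3 markers were Iyd, Socs2, Nptx1 and Bok. They were chosen by symbol, and all 10 were found among the 57180 gene rows of the count table and passed the filter on low counts. Levels are in CPM, the count of a gene divided by the scaled size of its library.

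Poly(A) RNA of the hippocampus was sequenced in 18 libraries, 1 per mouse, from wild-type adolescent male C57BL/6J mice of a single labelled batch. The 6 control mice had no treatment. The stress group, 6 mice, was exposed to chronic social defeat stress (CSDS), in which a resident mouse repeatedly defeats the intruder placed in its cage. The 6 mice of the exercise group had the same CSDS and trained aerobically from 1 week before it until its end. No group was trained without CSDS, so the exercise mice can be set only against CSDS mice or untreated controls. Total estimated counts were 18911080 to 24136591 per library, and 16738 genes were tested.

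As background, CA3 pyramidal cells receive the mossy fibres of dentate granule cells, excite each other through recurrent collaterals and project to CA1. Their apical dendrites are known to retract in rodents under prolonged stress. CA2 is a narrow field between CA3 and CA1 that resists the usual forms of synaptic plasticity and is needed for the memory of familiar animals. None of the markers is made by these cells alone in the brain, and in RNA of a whole hippocampus fewer cells of a type and less RNA per cell cannot be told apart.

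Control replicate 2 stands apart from the other 17 libraries and is given separately. Its 8 dentate granule cell markers summed to 129.6 CPM, against 344 to 750 CPM in the others, and its 8 neocortical markers to 756 CPM, against 152 to 216 CPM. The dentate marker Prox1 was at 10.4 CPM there, and the cortical markers Lamp5 and Tbr1 at 259 and 164 CPM. A further 4 libraries, control replicates 1 and 3 and exercise replicates 3 and 6, held more of the thalamic transcript Tcf7l2 (28.8, 70.0, 33.3 and 143 CPM) than any other library (3.99 to 7.92 CPM). In those 4 libraries, 5 of 6 thalamic markers were above every other library, and the 6 summed to 238 to 561 CPM, against 62.4 to 98.2 CPM in the 13 libraries that remain without control replicate 2. Comparisons are therefore also given for these 13 libraries (3 control, 6 CSDS, 4 exercise), a choice made after the levels were seen. They still differ in transcripts of the choroid plexus. Its 6 markers summed to 2580 to 4904 CPM in the 3 controls, 94.8 to 8405 CPM in the 6 CSDS mice and 63.2 to 6523 CPM in the 4 exercise mice.

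The promoters of 4 members show how unlike the genes are at their starts: Pcp4, the most variable member, Iyd, the member with the fewest counts in control replicate 2, and Amigo2 and Cacng5, both highest in exercise replicate 6. Of the 10 members, 6 were in the RefSeq promoter table (GRCm38.p6), and the 250 bases before the start are shown 5' to 3' on the gene's strand. Capitals mark matches on either strand to the TATA box letters TATAAA (held by 12.4% of all 32851 promoters of that length), the GC box letters GGGCGG (32.7%), the CCAAT box letters CCAAT (33.9%) and AGAACA, letters bound by steroid receptors (16.1%). No matches shown overlap, and a match describes letters only.
Pcp4: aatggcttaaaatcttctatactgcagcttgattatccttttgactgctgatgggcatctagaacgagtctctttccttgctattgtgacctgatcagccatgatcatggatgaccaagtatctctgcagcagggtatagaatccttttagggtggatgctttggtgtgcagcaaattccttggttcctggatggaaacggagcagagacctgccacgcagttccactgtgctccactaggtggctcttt
Iyd: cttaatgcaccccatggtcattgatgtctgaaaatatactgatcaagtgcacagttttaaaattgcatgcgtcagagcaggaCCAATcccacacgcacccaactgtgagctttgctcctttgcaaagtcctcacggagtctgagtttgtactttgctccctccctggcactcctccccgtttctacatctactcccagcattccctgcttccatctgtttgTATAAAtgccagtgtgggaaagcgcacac
Amigo2: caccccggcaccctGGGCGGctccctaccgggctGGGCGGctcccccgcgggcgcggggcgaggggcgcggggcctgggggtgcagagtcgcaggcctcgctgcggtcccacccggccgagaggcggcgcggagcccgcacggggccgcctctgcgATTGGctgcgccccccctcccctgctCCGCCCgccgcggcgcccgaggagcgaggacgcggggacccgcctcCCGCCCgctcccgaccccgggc
Cacng5: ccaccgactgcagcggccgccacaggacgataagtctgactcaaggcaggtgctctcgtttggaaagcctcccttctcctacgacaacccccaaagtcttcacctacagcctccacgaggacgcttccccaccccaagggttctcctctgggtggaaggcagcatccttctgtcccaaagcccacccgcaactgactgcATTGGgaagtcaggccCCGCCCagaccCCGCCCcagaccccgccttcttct
The Pcp4 promoter (chr16:96467356-96467605, plus strand) was 46.8% G or C and held none of the motifs. That of Iyd (chr10:3540024-3540273, plus strand), at 48.4%, held 1 TATAAA and 1 CCAAT. The Amigo2 promoter (chr15:97247288-97247537, minus strand) was 84.0% G or C with 38 CpG dinucleotides and 4 GGGCGG matches, where the median of all promoters was 52.4% and 6 CpG. The Cacng5 promoter shown (chr11:107915056-107915305, minus strand), that of 1 of its 2 starts in the table, was 62.0% G or C with 2 GGGCGG matches. Cacng5 and Amigo2 each held 1 CCAAT as well.

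Per kilobase of exon, the order of the members' median levels over the 17 libraries ran from Nptx1 (136 CPM per kb) through Pcp4 (92.9), Necab2 (42.8), Bok (41.4), Rgs14 (26.6), Amigo2 (7.55), Cacng5 (5.13), Iyd (2.39) and Socs2 (1.45) to Map3k15 (0.525 CPM per kb). The neighbours Nptx1 and Pcp4, and Necab2 and Bok, were in this order in 12 of 17 libraries only. Of the 9 neighbouring pairs, Rgs14 and Amigo2 alone had ranges over the libraries that did not overlap. Relative to its own mean, Pcp4 varied most over the 17 mice (coefficient of variation 66.2%), followed by Map3k15 (43.8%) and Cacng5 (35.4%), and Necab2 varied least (12.3%).

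**Figure D1:**
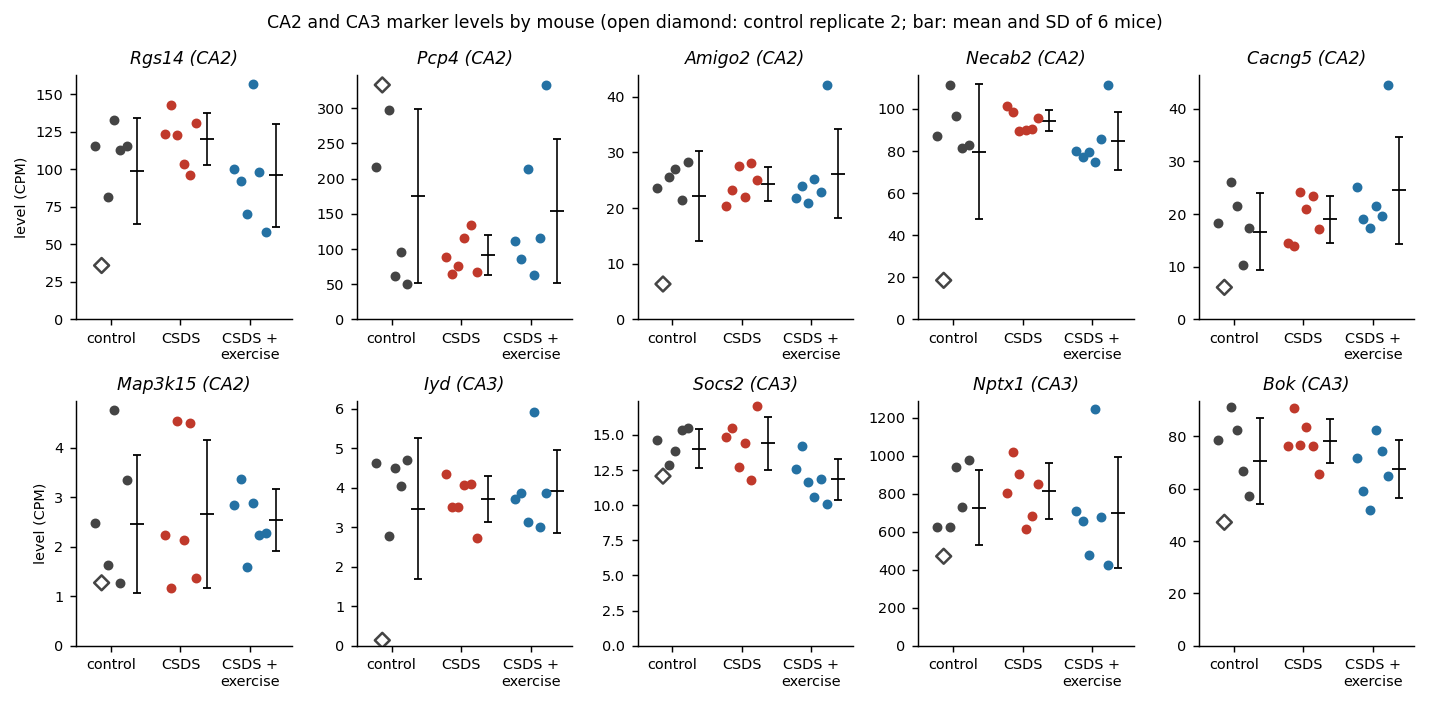
Level of each member in CPM (vertical axis, from 0) in each mouse of the 3 groups, with the mean and SD of 6 mice beside the points and control replicate 2 as an open diamond. Control replicate 2 lies lowest for 6 members, and exercise replicate 6 highest for Pcp4, Amigo2, Necab2 and Cacng5.

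The question of the first comparison, CSDS against control, was whether markers of either field shift after defeat. By edgeR's quasi-likelihood test, 0 of 10 members passed an adjusted p of 0.05 (over all genes, 0%), and 0 of 10 an unadjusted p of 0.05 (over all genes, 3.51%). The groups overlapped for all 10, while 0.239% of all genes had groups that did not. The fitted difference was positive for 9 of 10 members (50.0% of all genes) with a median log2 fold change of 0.14, against 0.00 for all genes. Without control replicate 2 it was positive for 5 of 10 (53.4% of all genes), with a median of 0.01. In that fit the counts below the adjusted and the unadjusted threshold were again 0 of 10 (0% and 2.38% of all genes), and 0 of 10 had groups that did not overlap (0.339%). Leaving out control replicate 4, 5 or 6, CSDS replicate 5, or exercise replicate 4 or 6 brought 1 of 10, Pcp4, under the unadjusted threshold (3.79% to 5.67% of all genes). In the 13 libraries the counts were 0 of 10 adjusted (0% of all genes) and 0 of 10 unadjusted (3% of all genes).

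The other comparisons set the exercise mice against CSDS mice and against controls. In exercise with CSDS against CSDS, 0 of 10 members passed the adjusted threshold (0% of all genes) and 1 of 10, Socs2, had an unadjusted p under 0.05 (15.6% of all genes). In exercise with CSDS against control the same counts were 0 of 10 (0.0179% of all genes, 3 genes) and 1 of 10, again Socs2 (11.2% of all genes). No member had groups that did not overlap (0.890% and 0.562% of all genes). Without control replicate 2, the counts against control were 0 of 10 adjusted (0%), 1 of 10 unadjusted (11.7%) and 0 of 10 without overlap (0.903%). Positive differences were fitted for 4 of 10 members against CSDS (53.5% of all genes) and for 5 of 10 against control (52.0%), or 3 of 10 without control replicate 2 (53.4%). Leaving out each library moved the unadjusted count against CSDS from 1 to 3 of 10 without exercise replicate 4 (Rgs14, Socs2 and Nptx1; 26.3% of all genes). Against control it was 2 of 10 without control replicate 3, control replicate 4 or exercise replicate 3 (10.6%, 8.38% and 8.01% of all genes). It was 0 of 10 without control replicate 1, 5 or 6 or exercise replicate 6 (11.7%, 11%, 11.7% and 10.8% of all genes). In the 13 libraries 0 of 10 members passed the adjusted threshold in either comparison (0% of all genes). There 1 of 10, Necab2, had an unadjusted p under 0.05 against CSDS (10.8% of all genes), and 0 of 10 against control (10.6%). The 2 comparisons share the exercise mice, and each shares a group with the first.

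**Figure D2:**
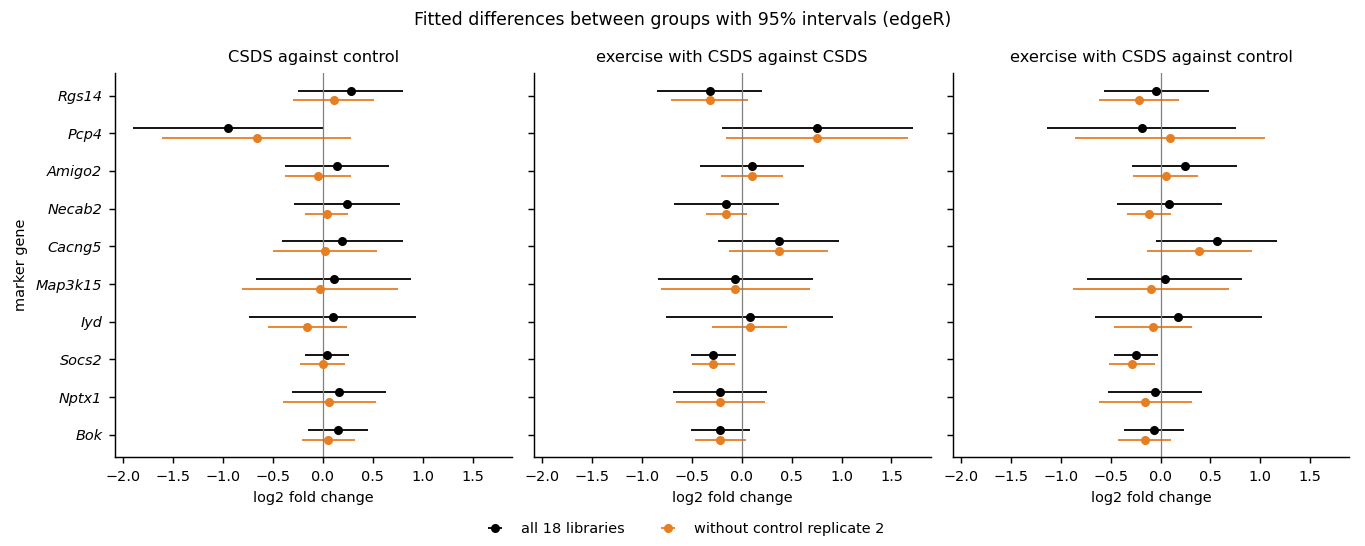
Fitted log2 fold change of each member (horizontal axis) with its 95% interval in the 3 comparisons, with all 18 libraries (black) and without control replicate 2 (orange). All 10 intervals of CSDS against control include 0, and those of Socs2 in both comparisons with the exercise mice lie below 0 before adjustment.

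Rgs14 (chr13:55369732-55384687), a regulator of G protein signalling that restrains synaptic plasticity in CA2 cells, was the third most abundant CA2 member per kilobase. It was at 35.9, 114 and 133 CPM in control mice (lowest, median and highest), at 96.1, 123 and 143 CPM in CSDS mice and at 58.1, 95.2 and 157 CPM in exercise mice. The lowest mice were control replicate 2 and, among the rest, exercise replicate 6 (58.1 CPM) and exercise replicate 3 (70.2 CPM), while exercise replicate 4 was the highest of all 18. Means were 99.0 ± 35.1, 120 ± 17.4 and 96.1 ± 34.3 CPM (SD, n = 6 each). The log2 fold change was 0.28 ± 0.25 (SE) in CSDS against control and -0.32 ± 0.25 in exercise against CSDS, with intervals of -0.25 to 0.81 and -0.85 to 0.20 (edgeR, adjusted p = 0.993 and 0.525). The first difference was 0.11 without control replicate 2, and -0.00 in the 13 libraries (interval -0.36 to 0.35). The second was -0.10 in the 13 libraries (interval -0.42 to 0.23), -0.54 without exercise replicate 4 and -0.21 without exercise replicate 6.

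Pcp4 (chr16:96467606-96525793) encodes a small protein that binds calmodulin and is abundant in CA2 cells, and it had the widest spread of the 10. Its levels were 49.8, 156 and 333 CPM in control mice, 64.9, 82.3 and 135 CPM in CSDS mice and 62.8, 114 and 334 CPM in exercise mice. The 5 highest libraries were exercise replicate 6 (334 CPM), control replicate 2 (333 CPM), control replicate 3 (298 CPM), control replicate 1 (217 CPM) and exercise replicate 3 (213 CPM). No CSDS mouse exceeded 135 CPM, but 3 controls lay at 49.8 to 95.3 CPM, within or below the CSDS range. These 5 are the libraries set apart above by thalamic or cortical markers. Its log2 fold change in CSDS against control was -0.95 ± 0.46 (interval -1.90 to 0.01, edgeR, adjusted p = 0.993), the largest of any member in that comparison. It was -0.66 without control replicate 2 and turned to 0.40 in the 13 libraries (interval -0.17 to 0.98). In exercise against CSDS it was 0.76 ± 0.46 (interval -0.20 to 1.71, adjusted p = 0.413), 0.37 without exercise replicate 6 and 0.05 in the 13 libraries. The share of Pcp4 RNA that came from CA2 cells was not tested.

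Amigo2 (chr15:97244125-97247287), a cell adhesion protein with leucine-rich repeats, was at 6.35, 24.6 and 28.3 CPM in control mice, at 20.3, 24.1 and 28.1 CPM in CSDS mice and at 21.0, 23.4 and 42.2 CPM in exercise mice. Apart from control replicate 2 at the bottom and exercise replicate 6 at the top, all mice lay between 20.3 and 28.3 CPM. Its log2 fold change was 0.14 ± 0.25 in CSDS against control, and -0.05 without control replicate 2. The interval with all libraries, -0.39 to 0.67, leaves room for a change in either direction. Its exons overlap those of Pced1b on the opposite strand (3.09 to 5.25 CPM), and the strand setting of the counting is not given in the sources used here.

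Necab2 (chr8:119446719-119472640), a calcium-binding protein of neurons, was the steadiest member over the 17 libraries, though not with control replicate 2. It was at 18.6, 85.1 and 112 CPM in control mice, at 89.7, 93.1 and 101 CPM in CSDS mice and at 74.6, 79.7 and 112 CPM in exercise mice. Of the exercise mice, 5 lay between 74.6 and 85.8 CPM, below every CSDS mouse, and exercise replicate 6 lay above all of them at 112 CPM. Its exercise against CSDS difference was -0.15 ± 0.25 on the log2 scale (interval -0.68 to 0.37, edgeR, adjusted p = 0.783). It was -0.25 without exercise replicate 6. In the 13 libraries it was -0.25 ± 0.08 (interval -0.41 to -0.08, edgeR, unadjusted p = 0.00551, adjusted p = 0.398), the smallest p of a member there. With a correction for GC content in all libraries the difference turned to 0.14. The exons of Necab2 are 60.1% G or C, the second highest share of the members after Bok.

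Cacng5 (chr11:107874605-107915055) encodes an auxiliary subunit of AMPA receptors. Its levels were 6.08, 17.8 and 26.0 CPM in control mice, 13.9, 19.0 and 24.2 CPM in CSDS mice and 17.3, 20.6 and 44.6 CPM in exercise mice. Exercise replicate 6 was far above all others, whose highest was control replicate 3 at 26.0 CPM. Exercise against control gave the largest positive difference of a member in that comparison, 0.56 ± 0.29 (interval -0.05 to 1.17, edgeR, adjusted p = 0.478), and 0.37 in the 13 libraries. It was 0.39 without control replicate 2 (interval -0.14 to 0.91), 0.30 without exercise replicate 6 and 0.73 without control replicate 3. Map3k15 (chrX:159988433-160123351), a kinase at the head of MAP kinase cascades, was the scarcest CA2 member, at 1.27 to 4.76, 1.17 to 4.53 and 1.59 to 3.36 CPM in the 3 groups. Its highest libraries were control replicate 4 and CSDS replicates 3 and 5 (4.76, 4.53 and 4.50 CPM), in which Ttr, a transcript of the choroid plexus, was at 4427, 6133 and 7939 CPM, while control replicate 1 had 5189 CPM of Ttr and 2.47 CPM of Map3k15. Its exons overlap Pdha1 on the opposite strand (196 to 262 CPM), so its counts are uncertain.

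Socs2 (chr10:95385362-95417180), a suppressor of cytokine and growth hormone signalling, was the member with the smallest p in both comparisons with the exercise mice over all 18 libraries. It was at 12.1, 14.2 and 15.5 CPM in control mice, at 11.8, 14.7 and 17.1 CPM in CSDS mice and at 10.1, 11.8 and 14.2 CPM in exercise mice. Exercise mice lay lower on the whole, but the groups overlapped. Means were 14.0 ± 1.37, 14.4 ± 1.90 and 11.8 ± 1.48 CPM (SD, n = 6 each). The log2 fold change was -0.28 ± 0.11 in exercise against CSDS (0.821-fold, interval 0.704 to 0.958; edgeR, unadjusted p = 0.0151, adjusted p = 0.242). Against control it was -0.25 ± 0.11 (0.843-fold, interval 0.722 to 0.984; unadjusted p = 0.0319, adjusted p = 0.400). Adjusted over all genes, neither passed. Over all settings tried, the adjusted p of the first lay between 0.0432 (limma voom) and 0.816 (GC correction), and the difference stayed between -0.36 and -0.23. In the 13 libraries neither difference had an unadjusted p under 0.05: -0.23 (interval -0.48 to 0.02, edgeR, unadjusted p = 0.0739) against CSDS and -0.27 (interval -0.57 to 0.02, unadjusted p = 0.0657) against control. Between CSDS and control the difference was 0.04 ± 0.11, with an interval of -0.18 to 0.26.

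Nptx1 (chr11:119538719-119547753), a secreted pentraxin that gathers AMPA receptors at excitatory synapses, was the most abundant member per kilobase. It was at 471, 678 and 976 CPM in control mice, at 615, 829 and 1020 CPM in CSDS mice and at 428, 667 and 1248 CPM in exercise mice. Exercise mice held both the lowest value (replicate 6) and the highest (replicate 4), and 5 of them lay at or below 711 CPM. Its exercise against CSDS difference was -0.22 ± 0.22 on the log2 scale (interval -0.69 to 0.25, edgeR, adjusted p = 0.645), and 0.02 in the 13 libraries. It was -0.48 without exercise replicate 4 and -0.11 without exercise replicate 6. Limma voom with quality weights, which called 5567 genes in this comparison where edgeR called 0, also called Nptx1, Rgs14 and Socs2 lower in exercise mice (adjusted p = 0.0423, 0.0305 and 0.0432).

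Bok (chr1:93685660-93695764), a member of the Bcl-2 family of apoptosis regulators, was at 47.1, 72.7 and 91.4 CPM in control mice, at 65.6, 76.4 and 90.9 CPM in CSDS mice and at 51.9, 68.1 and 82.5 CPM in exercise mice, with wide overlap. Its log2 fold change in exercise against CSDS was -0.21 ± 0.14 (interval -0.51 to 0.09, edgeR, adjusted p = 0.458), and 0.09 after the GC correction. Bok exons had the highest GC share of the members, 61.0%. Iyd (chr10:3540240-3554877), the enzyme that recovers iodide from iodotyrosines and a sparse marker of CA3, was at 0.136, 4.28 and 4.70 CPM in control mice, at 2.73, 3.79 and 4.34 CPM in CSDS mice and at 3.005, 3.79 and 5.92 CPM in exercise mice. Without control replicate 2 no mouse had fewer than 59 Iyd counts. The difference in CSDS against control was 0.10 ± 0.40 with all libraries and -0.16 without control replicate 2.

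Control replicate 2 lay below all of the other 17 libraries for 6 of 10 members, a place that 16.2% of all genes tested had there; 14.0% lay above all others. The CA2 markers Rgs14, Amigo2, Necab2 and Cacng5 were at 35.9, 6.35, 18.6 and 6.08 CPM in it, against lowest values of 58.1, 20.3, 74.6 and 10.4 CPM elsewhere. Iyd was at 0.136 CPM from 3 counts (95% Poisson interval 0.0281 to 0.398 CPM, counting error only) against 2.73 to 5.92 CPM, and Bok at 47.1 CPM against 51.9 to 91.4 CPM. Map3k15, Socs2 and Nptx1 lay within the range of the others, and Pcp4, the second highest of the 18, did too. Against the median of the other 17 libraries, the median log2 ratio was -1.67 over the CA2 members, -0.64 over the CA3 members and 0.00 over all genes. Markers of the other fields were low in it too: 5 of 6 CA1 markers and 6 of 8 dentate markers lay below all others. Of the 8 neocortical markers, 6 lay above all others.

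**Figure D3:**
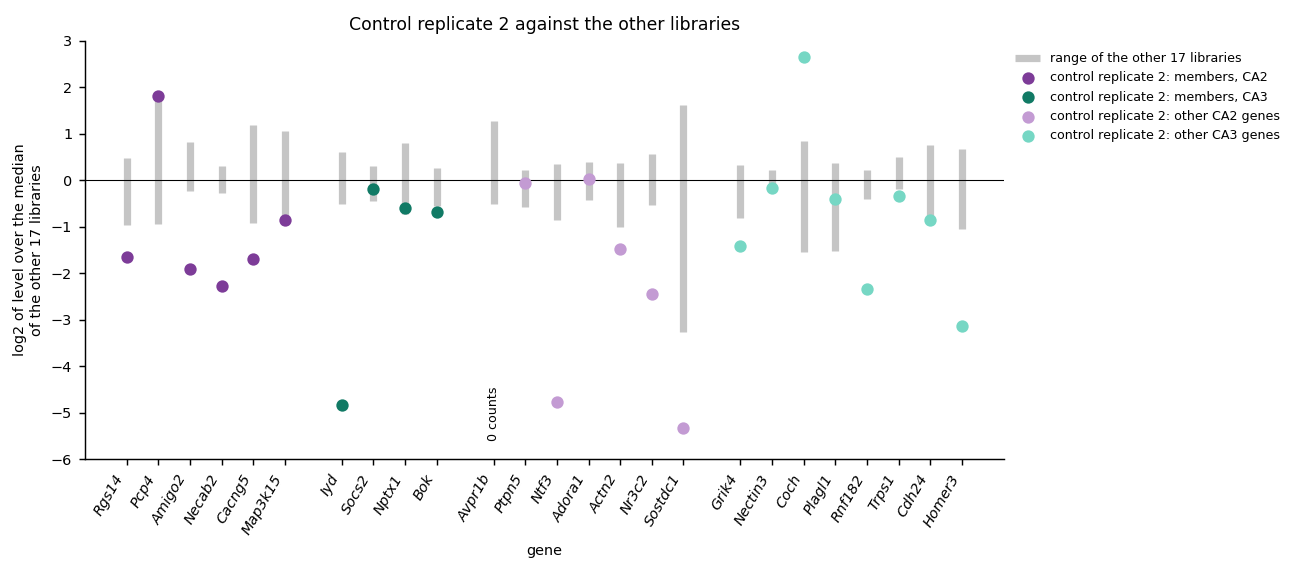
Level in control replicate 2 (points) as log2 of its ratio to the median of the other 17 libraries, with the range of those libraries as grey bars, for the members and for other CA2 and CA3 genes. Points below the bars include Rgs14, Amigo2, Necab2, Cacng5, Iyd and Bok, Coch lies above its bar, and Avpr1b had 0 counts.

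Further genes of the 2 fields, 7 of CA2 and 8 of CA3, were read beside the members. In control replicate 2, 5 of 7 and 4 of 8 lay below all other libraries. Ntf3, a neurotrophin, was at 0.182 CPM there from 4 counts (95% Poisson interval 0.0495 to 0.465 CPM) against 2.70 to 6.23 CPM. Avpr1b, the vasopressin receptor of CA2 cells, had 0 counts, which allows up to 0.136 CPM (3 counts), against 0.257 to 0.890 CPM. Homer3, a postsynaptic scaffold protein, was at 8.76 CPM against 37.2 to 123 CPM. Coch, an extracellular matrix protein, was above all others, at 42.4 CPM against 2.31 to 12.2 CPM. Sostdc1, counted among the 5 CA2 genes, was at 0.454 CPM there, where the choroid plexus transcript Ttr was at 12.7 CPM. In CSDS replicates 2, 4 and 6 and exercise replicates 1, 4 and 5, Sostdc1 was at 1.88 to 3.66 CPM and Ttr at 26.4 to 149 CPM. In all other libraries they were at 14.9 to 56.0 and 1657 to 7939 CPM. The part of choroid plexus in the Sostdc1 level was not tested.

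Between the groups none of these genes passed the adjusted threshold either (edgeR; 6 of 7 CA2 genes and 8 of 8 CA3 genes tested, Avpr1b being too low). In CSDS against control, 5 of 6 and 7 of 8 differences were positive (50.0% of all genes), with unadjusted p under 0.05 for none (3.51% of all genes). The counts of CA2 genes in this and the other comparisons include Sostdc1, whose level went with that of Ttr. The smallest p values there were those of Actn2, an actin crosslinker (0.43 ± 0.23), and Ptpn5, a tyrosine phosphatase of neurons (0.20 ± 0.12), and in CA3 those of Coch (-1.06 ± 0.51) and Trps1 (0.14 ± 0.10), a transcription factor. In the 13 libraries, where Avpr1b passed the filter, the positive counts were 3 of 7 and 4 of 8 (53.4% of all genes). In exercise against CSDS, 1 of 6 and 3 of 8 differences were positive (53.5% of all genes) and the others negative. There 2 of 6 and 0 of 8 had an unadjusted p under 0.05 (15.6% of all genes). With the GC correction these counts were 0 of 6 and 0 of 8 (5.43% of all genes). The positive differences were then 0 of 6 and 3 of 8 (51.0% of all genes). In exercise against control, without that correction, 1 of 6 and 2 of 8 had an unadjusted p under 0.05 (11.2% of all genes). Adora1, the adenosine A1 receptor, was at 292 ± 59.5 CPM in exercise mice and 358 ± 50.3 CPM in CSDS mice (-0.29 ± 0.12, adjusted p = 0.261), and Ptpn5 at 109 ± 19.3 and 131 ± 11.1 CPM (-0.27 ± 0.12, adjusted p = 0.297). The differences with the smallest p in CA3 were those of Trps1 (0.18 ± 0.10) and Homer3 (-0.57 ± 0.36). In exercise against control they were those of Adora1 (-0.27 ± 0.12) and of Nr3c2, the mineralocorticoid receptor (0.30 ± 0.28), in CA2, and of Trps1 (0.32 ± 0.10, adjusted p = 0.258) and Coch (-1.12 ± 0.51, adjusted p = 0.425) in CA3. Coch was far higher in control replicate 2 (42.4 CPM) than in the other 5 controls (5.73 to 9.12 CPM) or the exercise mice (2.31 to 12.2 CPM). Apart from control replicate 2 it also went with Ttr. In CSDS replicates 2, 4 and 6 and exercise replicates 1, 4 and 5, where Ttr was low, Coch was at 2.31 to 5.14 CPM. Elsewhere, the other 5 controls included, it was at 5.73 to 12.2 CPM. The parts of control replicate 2 and of choroid plexus in the Coch differences were not tested.

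Several members had their extremes in the same libraries. The share of all genes with an extreme in exercise replicates 4 and 6 is not given here. The counts below are therefore not a result particular to the members. Exercise replicate 6 was the highest of all 18 for Pcp4, Amigo2, Necab2 and Cacng5, and the lowest for Socs2 and Nptx1. It was also the highest for all 4 habenular markers, which summed to 148 CPM there (elsewhere 22.2 to 75.5 CPM), and for 4 of 6 thalamic markers. Gpr151, a receptor of habenular neurons, was at 30.1 CPM in it and at 12.99 CPM in control replicate 3, the library with the second highest Cacng5 and Necab2, and at most at 1.44 CPM elsewhere. Its 6 CA1 markers summed to 448 CPM, the lowest sum apart from control replicate 2. The part of these tissues in the marker levels was not tested. Exercise replicate 4 was the highest of all for Rgs14, Iyd and Nptx1 and for 7 of 8 dentate markers.

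Among the members, Rgs14 and Nptx1, a CA2 and a CA3 marker, followed each other most closely from mouse to mouse. Each was closer still to genes outside the members, such as Ddn for Rgs14 (r = 0.98) and Phyhip for Nptx1 (r = 0.99). Over the 17 libraries Pearson's r of their log2 CPM was 0.92 and Spearman's rho 0.84 (permutation test, two-sided, p = 1e-05, the smallest it can give, and 5e-05; 0.00045 and 0.00112 adjusted over 45 pairs of members). Without the 2 libraries farthest in Rgs14 r was 0.85. It was 0.92 for deviations from group means, 0.64 within the 5 other controls, 0.91 within the 6 CSDS mice, 0.99 within the 6 exercise mice, 0.88 with each library's trend on GC content removed and 0.91 in the 13 libraries. Pcp4 fell into 2 clusters of libraries, so its relations were read in the 13 libraries only. There it ran against Nptx1, with r = -0.83 and rho = -0.84 (permutation p = 0.00061 and 0.00071, adjusted 0.0137 and 0.0160), and r = -0.86 without the 2 libraries farthest in Pcp4. Its relation to Rgs14, its fellow CA2 marker, was negative too (r = -0.73, rho = -0.73, permutation p = 0.00539 and 0.00617), but did not pass over 45 pairs (adjusted p = 0.0606 and 0.0651). Cacng5 and Socs2 gave r = -0.70 and rho = -0.70 over 17 libraries (permutation p = 0.00131 and 0.00242, adjusted 0.0147 and 0.0272), and r = -0.56 without the 2 libraries farthest in Cacng5. In the 13 libraries this pair did not pass (r = -0.64, adjusted permutation p = 0.165). Of the 45 pairs over 17 libraries, 25 were positive and 20 negative.

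**Figure D4:**
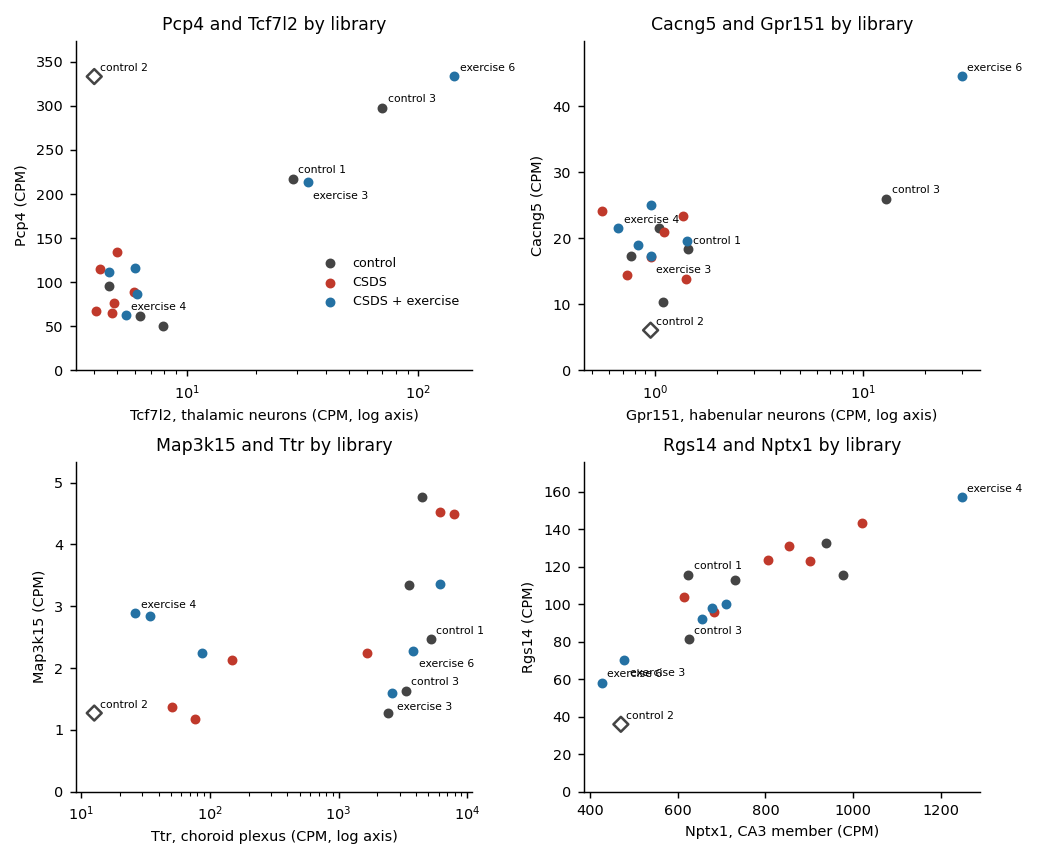
Levels in CPM by library for Pcp4 against the thalamic transcript Tcf7l2, Cacng5 against the habenular Gpr151, Map3k15 against the choroid plexus transcript Ttr (log horizontal axes) and Rgs14 against Nptx1 (linear axes). Control replicates 1 and 3 and exercise replicates 3 and 6 lie to the right for Tcf7l2 with 213 CPM or more of Pcp4, and Rgs14 and Nptx1 line up from exercise replicate 6 to exercise replicate 4.

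The genes most like each member over the 17 libraries, among 11251 with a mean of at least 5 CPM, are a description of these libraries, which share depth, dissection and base composition. For Rgs14 they were Ddn (r = 0.98), Psd and Strn4, and for Nptx1 they were Phyhip (0.99), Ptk2b and Plppr2. Pcp4, whose libraries form clusters, was left out. Cacng5 was closest to Zic4 (0.86), Rffl and Ift52, where Zic4 ranged from 0.843 to 25.1 CPM. Amigo2 was closest to Il6st (0.84), Cacng4 and Vwa5b1, and Necab2 to Itfg2 (0.87), Cadm4 and Enho. For Map3k15 the genes were Fam84b (0.87), Strip2 and Glis3, and for Iyd Jakmip3 (0.78), Cpne4 and Lhfpl2. Socs2 was closest to Slc5a5 (0.83), Fezf2 and Cpne7. Bok was closest to Rplp0 (0.92), Ubb and Tprgl, of which Rplp0 and Ubb can share reads with related sequences and are uncertain. The members themselves and predicted genes were left out of the 11251 genes searched.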

How the data were processed

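The authors deposited expected counts per gene and library, which need not be whole and are not normalized. Per the submitters' processing notes, fastp, HISAT2 and RSEM were used with GRCm38 (mm10); the sources used here do not give versions, annotation release or strand setting. Stranded poly(A) libraries were made from RNA of integrity number 7 or more, per the labels' protocols. Reads that fit several genes are split by RSEM, which leaves genes with close copies uncertain.

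Counts were rounded (22.7% of nonzero values were not whole) and fitted with edgeR 4.0.16 in R 4.3.3: filterByExpr (minimum count 10, minimum total 15), TMM scaling, 1 term per group, the quasi-likelihood F test over all 18 libraries and Benjamini-Hochberg adjustment over 16738 genes, called under 0.05. Intervals are 95%. Log2 CPM used a prior count of 2. Alternatives were DESeq2 1.42.0, limma 3.58.1 (voom with quality weights), other scalings and filters, a replicate block, the 2 groups compared alone, a GC correction and leaving out each library; 4 were added after seeing the data. The scripts were tested on simulated data. Correlations used 100000 permutations. Coordinates, exon lengths and GC content are from GENCODE M21 (GRCm38), and promoters from RefSeq.

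The members and marker lists were chosen with earlier results of these data known. Named are all members, in each other CA2 and CA3 list the 2 genes with the smallest p per comparison, the 3 genes most like each member (not Pcp4, whose libraries form clusters), and region-defining markers. Ntf3, Avpr1b, Homer3, Sostdc1 and Coch in control replicate 2, and the genes overlapping members, were named after their values were seen.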

Additional observations from a re-analysis of the deposited data

Results flagged for a closer look

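In 7 of 30 sets of 6 mice (10 members in 3 groups), the highest or lowest mouse lay farther from its neighbour than Dixon's 95% critical value allows. For a single set, chance gives about 1 in 20 if levels follow a normal distribution. The 30 sets share the same mice, and all 7 come from control replicate 2 and exercise replicates 4 and 6. The count can therefore not be set against that rate. Control replicate 2 lay below the other controls for Amigo2 (6.35 against 21.5 to 28.3 CPM) and Necab2 (18.6 against 81.6 to 112 CPM). Exercise replicate 6 lay above the other exercise mice for Amigo2 (42.2 against 21.0 to 25.2 CPM), Necab2 (112 against 74.6 to 85.8 CPM) and Cacng5 (44.6 against 17.3 to 25.1 CPM). Exercise replicate 4 lay above the others for Iyd (5.92 against 3.005 to 3.88 CPM) and Nptx1 (1248 against 428 to 711 CPM). No CSDS mouse was set apart in this way for any member.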

How the results depend on the processing

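Each member's 3 differences were recomputed under 31 settings (18 that leave out 1 library, 13 others): of 930 values, 843 kept their direction and their side of the threshold, 84 turned sign and 3 newly passed, which are the voom calls of Rgs14, Socs2 and Nptx1 (-0.44, -0.24 and -0.37). No difference that turned sign was called. Members called in exercise against CSDS were 3 of 10 by voom, which called 33.3% of all genes there, and 0 under the other settings. The cause was not tested.

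Over all genes, exercise against CSDS had 0 calls by edgeR, but 173 by DESeq2, 358 by DESeq2 without the control replicate 2 library, 5567 by voom, 2 with no filter, 1 with the 2 groups alone and 1 with the GC correction; leaving out each library gave 0 to 625, the highest without exercise replicate 4. Exercise against control had 3 calls, but 113 by DESeq2, 100 by DESeq2 without the control replicate 2 library and 183 by voom, and 0 with no filter, a minimum of 1 CPM in 6 libraries, the replicate block (with or without the control replicate 2 library), the 2 groups alone, the GC correction (with or without that library) and the 13 libraries; leaving out each library gave 0 to 13, again highest without exercise replicate 4. Same-numbered libraries' deviations from their group means correlated at -0.465 to 0.255, and not every library correlated best with its own number. These values show no sign of a pairing by replicate number but cannot exclude one. With the block 0 genes were called in each comparison, but without it edgeR called only 0, 0 and 3.

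In the 13 libraries the differences that turned sign were for CSDS against control Rgs14 -0.0041, Pcp4 0.40, Amigo2 -0.077, Map3k15 -0.24, Iyd -0.26, Socs2 -0.047, Nptx1 -0.12, and for exercise against CSDS Amigo2 -0.054, Map3k15 0.10, Nptx1 0.021, and for exercise against control Pcp4 0.45, Amigo2 -0.13, Necab2 -0.13, Map3k15 -0.14, Iyd -0.096, Bok 0.064. With DESeq2 without the control replicate 2 library the differences that turned sign were for CSDS against control Amigo2 -0.052, Map3k15 -0.026, Iyd -0.16, Socs2 -0.0011, and for exercise against control Pcp4 0.076, Necab2 -0.13, Map3k15 -0.098, Iyd -0.081. With the GC correction the differences that turned sign were for exercise against CSDS Necab2 0.14, Bok 0.088, and for exercise against control Rgs14 0.074, Map3k15 -0.014, Nptx1 0.0081, Bok 0.13. With the GC correction and without the control replicate 2 library the differences that turned sign were for CSDS against control Amigo2 -0.043, Necab2 -0.040, Map3k15 -0.034, Iyd -0.14, Bok -0.029, and for exercise against CSDS Necab2 0.14, Bok 0.088, and for exercise against control Map3k15 -0.14, Iyd -0.13, Bok 0.060. With limma voom the differences that turned sign were for exercise against CSDS Map3k15 0.34, Iyd -0.015, and for exercise against control Necab2 -0.037. With the replicate block and without the control replicate 2 library the differences that turned sign were for CSDS against control Amigo2 -0.031, Iyd -0.14, Socs2 -0.043, and for exercise against control Pcp4 0.26, Necab2 -0.12, Map3k15 -0.019, Iyd -0.081. Leaving out each library turned the sign of 14 of the 30 differences somewhere, with ranges for CSDS against control Amigo2 -0.052 to 0.22, Map3k15 -0.12 to 0.41, Iyd -0.16 to 0.20, Socs2 -0.016 to 0.081, and for exercise against CSDS Amigo2 -0.086 to 0.16, Map3k15 -0.22 to 0.16, Iyd -0.097 to 0.15, and for exercise against control Rgs14 -0.27 to 0.066, Pcp4 -0.57 to 0.094, Necab2 -0.12 to 0.21, Map3k15 -0.092 to 0.34, Iyd -0.076 to 0.28, Nptx1 -0.33 to 0.052, Bok -0.16 to 0.020.

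With 6 mice a group, intervals of most members span changes of either sign. Map3k15 (25 to 114 counts) and Iyd (3 to 133 counts) rest on the fewest reads.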
